A study of Mus musculus with 4 samples.

Results

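The 9 genes studied here encode products that form or mark the supporting stroma of bone marrow, and they were 9 of 21627 protein-coding genes on chromosomes 1 to 19 and X. They were examined for peaks of dimethylated lysine 36 of histone H3 (H3K36me2). The genes were Kitl, Angpt1, Cxcl12, Grem1, Vcam1, Lepr, Pdgfra, Nt5e and Prrx1, a named list chosen with earlier results of these data known. A peak belonged to a gene when it overlapped the gene or the 100 kb on either side. By this rule 24 of 7699 peaks came from cells given melatonin and 46 of 8361 from untreated cells. The samples were mesenchymal stem cells (MSCs) of mouse marrow, grown in culture with serum. A chromatin immunoprecipitation (ChIP) library, titled O7-M, was from cells exposed to 1 µM melatonin for 24 hours, and a second, titled O7-V, was labelled untreated, although the treatment protocol attached to it also mentions melatonin. Each had its own input library made without antibody. No strain, genotype, donor age or number of animals is given for a sample, while the series' design text speaks of old donors.

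With 1 ChIP library per condition, every difference below is between 2 libraries, has no replicate check and carries no p-value. The libraries held 14180076.5 and 13198427.5 tags (mapped read ends), of which 1.12% with melatonin and 1.24% without lay in peaks. A missing peak therefore means only that no window passed the peak finder's thresholds. Because the cells were profiled in bulk, fewer marked cells and less mark per cell cannot be told apart. Peak lists carry no measure of expression, so the MSC label could not be checked against its markers.

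Marrow stromal cells hold blood-forming stem cells in place and keep them quiescent through secreted and surface-bound factors, and many of these cells bear the leptin receptor. Kitl encodes stem cell factor, the ligand of the receptor KIT, and Cxcl12 encodes the chemokine that retains stem cells through CXCR4. Angpt1 encodes angiopoietin 1, a ligand of the vessel receptor TEK. H3K36me2 is laid down by enzymes that include NSD2, named in the study's title, and is typically spread over wide intergenic and genic domains. Short peak calls do not outline such domains.

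No promoter window listed for these genes overlapped a called peak. A RefSeq promoter table (GRCm38.p6) held windows for 7 of the 9 genes, 8 windows in all, and not for Angpt1 and Vcam1. None of the 8 windows overlapped a peak of either library, which allows a share of up to 36.9% (exact 95% binomial interval). Over all 32619 windows on the same chromosomes, 0.208% overlapped a melatonin peak and 0.144% an untreated peak. The nearest untreated peak to any of the 8 was 2.67 kb from the Grem1 window, and the nearest melatonin peak was 6.35 kb from the Nt5e window. The 250 bases before these start sites are shown because they came closest to a peak, together with those of Cxcl12, which had no peak in its whole window. Capitals mark GGGCGG, the GC box letters bound by Sp1-type factors, read on both strands and allowed to overlap, and each sequence runs 5′ to 3′ along the gene. Those of Nt5e and Cxcl12 are on the plus strand at chr9:88327359-88327608 and chr6:117168285-117168534, and that of Grem1 is on the minus strand at chr2:113758649-113758898.
Grem1: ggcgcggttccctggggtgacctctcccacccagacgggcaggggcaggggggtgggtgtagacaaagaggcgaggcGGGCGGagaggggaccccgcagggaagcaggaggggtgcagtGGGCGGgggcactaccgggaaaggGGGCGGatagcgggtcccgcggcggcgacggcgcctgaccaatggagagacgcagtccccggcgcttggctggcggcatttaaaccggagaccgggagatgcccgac
Nt5e: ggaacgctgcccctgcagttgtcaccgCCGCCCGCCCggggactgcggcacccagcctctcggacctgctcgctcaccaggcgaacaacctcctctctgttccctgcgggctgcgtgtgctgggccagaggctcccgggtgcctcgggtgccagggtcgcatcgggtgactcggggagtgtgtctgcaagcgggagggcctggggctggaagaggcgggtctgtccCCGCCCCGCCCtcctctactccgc
Cxcl12: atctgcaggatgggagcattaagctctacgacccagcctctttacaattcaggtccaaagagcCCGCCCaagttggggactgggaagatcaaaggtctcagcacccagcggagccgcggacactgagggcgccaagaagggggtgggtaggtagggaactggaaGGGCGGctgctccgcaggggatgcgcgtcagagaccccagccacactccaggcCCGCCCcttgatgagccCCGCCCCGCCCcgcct
The GC content was 72% for Grem1, 72% for Nt5e and 64.4% for Cxcl12. These letters occurred 3 times for Grem1, 4 times for Nt5e and 5 times for Cxcl12. So a promoter rich in G and C was found at genes with and without peaks around them. Across the 8 windows GC content ran from 47.6% (Prrx1) to 72%, with a median of 61.4% against 52.4% for all 32851 windows in the table. GC box letters were in 5 of the 8, and in 32.7% of all windows. TATAAA, the letters of the TATA box, read on both strands, was found in 1 of the 8, that of Kitl, and in 12.4% of all windows.

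Peaks near the 9 genes were more numerous in the untreated library. A peak lay in or within 100 kb of 6 genes with melatonin and of 7 without, where 29.9% and 26.7% of all protein-coding genes had one. By chromosome these shares ran from 15.8% and 12% on chromosome 4 (Lepr) to 47.4% and 43.2% on chromosome 1 (Prrx1). On the chromosomes of Kitl, Angpt1, Cxcl12, Vcam1 and Prrx1 both were above those of all genes. The same 6 genes, Kitl, Angpt1, Grem1, Vcam1, Nt5e and Prrx1, had peaks in both lists (16.1% of all genes). Lepr had one in the untreated list alone (10.6% of all genes), no gene had one in the melatonin list alone (13.8%), and Cxcl12 and Pdgfra had none in either (59.5%). The 24 melatonin and 46 untreated peaks gave a ratio of 0.522 (exact 95% binomial interval 0.305 to 0.873), against 0.921 for the whole lists. On the 9 chromosomes that carry these genes the ratio was lowest on chromosome 3, at 0.807, and it was above 1 on chromosome 6 alone. Without Angpt1, which held 22 of the 70 peaks, 17 and 31 peaks were left and the ratio was 0.548 (0.285 to 1.02), an interval that includes the ratio of the whole lists. These intervals cover counting error only and treat peaks as independent, although untreated peaks here lay in small groups. Because the 9 genes were chosen with earlier results of these data known, the intervals describe them and do not test a departure from the whole lists.

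**Figure D1:**
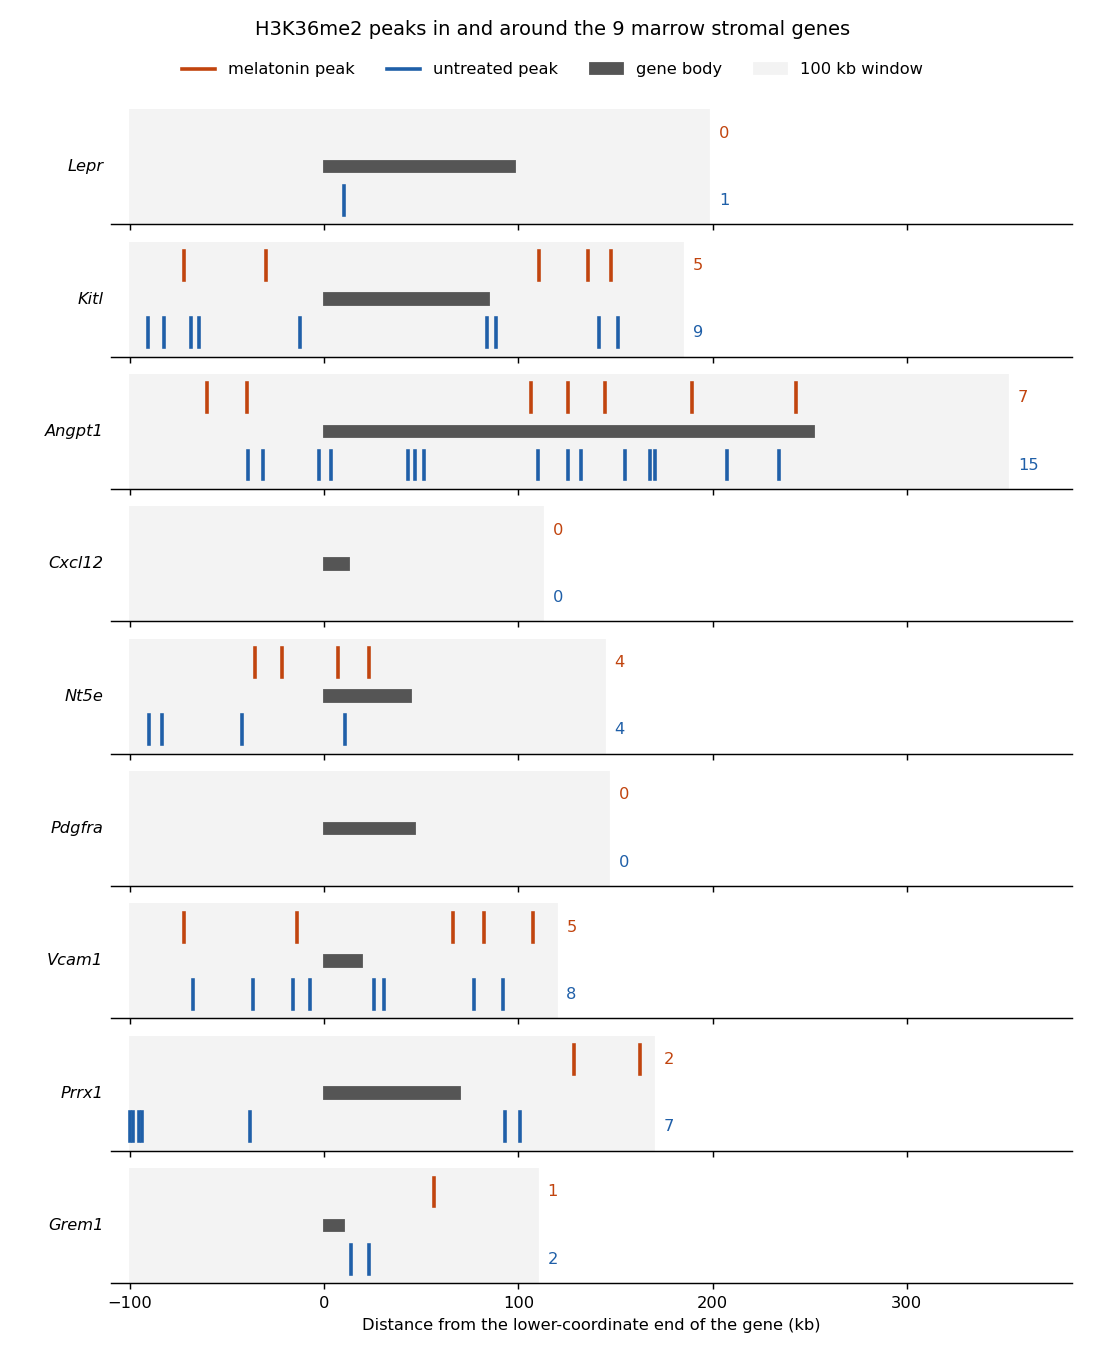
Position of every H3K36me2 peak in the 9 gene windows, in kb from the lower-coordinate end of each gene, with melatonin peaks above and untreated peaks below the gene body and the number of each at the right. Angpt1 shows 5 melatonin and 12 untreated peaks inside the gene, the Vcam1, Prrx1 and Grem1 bodies are free of peaks, and the Cxcl12 and Pdgfra windows are empty.

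In 6 genes the window had more untreated than melatonin peaks, as in 15.7% of all protein-coding genes, and in none did it have more melatonin peaks (18.8%). This count depended on the window: for gene bodies alone, 3 genes had more untreated and 1 had more melatonin peaks. Within 100 kb Nt5e had 4 in each list. Among the 8752 genes with any peak in the window the share with more untreated peaks was 38.7%, and it was 6 of 7 here. The median number of peaks per window was 2 with melatonin and 4 without, against 0 and 0 over all protein-coding genes. The 9 genes had a median length of 46.9 kb against 17.3 kb for all, so their windows span more sequence. Within 10 kb, 2 genes had a melatonin peak (8.89% of all genes) and 6 an untreated one (8.36%). The 4 genes Grem1, Kitl, Lepr and Vcam1 had an untreated peak within 10 kb and no melatonin peak there (4.73% of all genes), and no gene showed the opposite (5.27%).

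**Figure D2:**
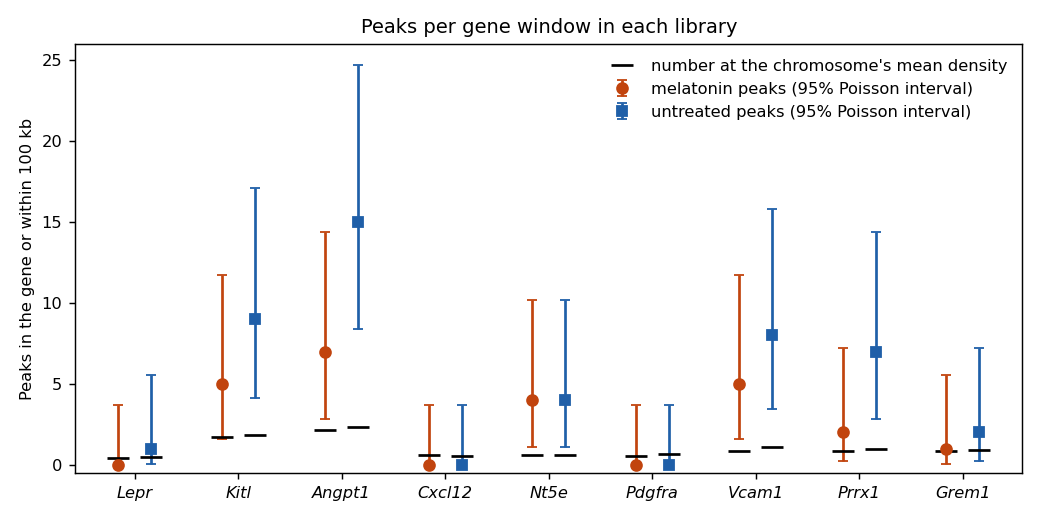
Number of peaks in each gene or within 100 kb of it, for the melatonin (circles) and untreated (squares) libraries with 95% Poisson intervals, and the number that the chromosome's mean peak density gives for a window of that size (black dashes). The intervals of the libraries overlap at each of the 9 genes, and 5 genes lie above the dashes in both libraries by more than 2 times.

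Among the secreted and membrane-bound ligands, Kitl (chromosome 10, 100015615 to 100100416, plus strand) was flanked by peaks on both sides. It had 5 melatonin peaks (95% Poisson interval 1.62 to 11.7) and 9 untreated peaks (4.12 to 17.1). The window held 17.6 and 31.6 peaks per Mb, which was 2.87 and 4.84 times the means of chromosome 10. The densities of both lists were thus above that of a chromosome already rich in peaks. One peak fell in the gene itself, at the 3′ end in the untreated list (100098974 to 100100332, fold over input 9.61, 17.0 normalised tags, which are tags per 10000000 of the library). A second untreated peak followed 3.01 kb beyond the gene (100103426 to 100104723, fold 15.38, 18.2 normalised tags), and the nearest melatonin peak to it was 21 kb away. Fold here is the authors' ratio of ChIP to input tags, which had to reach 4. The gene's 3′ end was therefore called in 1 library only, with 2.3 and 1.6 input tags in these regions where the median untreated peak had 3.9.

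Upstream of Kitl, 2 melatonin and 5 untreated peaks were called, and downstream 3 and 3. The farthest downstream pair lay 2.21 kb apart, with the melatonin peak at 100162858 to 100164160 (fold 7.1) and the untreated peak at 100166368 to 100167635 (fold 4.7). The next pair lay 4.27 kb apart (100151012 to 100152265, fold 5.54, and 100156531 to 100157848, fold 4.73). Upstream, a melatonin peak at 99942768 to 99944321 (fold 5.3, 21.5 normalised tags) lay 2.37 kb from an untreated peak at 99946695 to 99947695 (fold 4.17, 14.8 normalised tags). These 3 pairs were close without overlapping, and no Kitl peak overlapped one of the other library. The melatonin region of the last pair was the wider one, and per kb the values were 13.8 and 14.8 normalised tags. The peak with the next highest fold, at 99932486 to 99933742 in the untreated list (fold 11.32), was 9.03 kb from a melatonin peak.

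Angpt1 (chromosome 15, 42424667 to 42676977) had the most peaks, 7 with melatonin (2.81 to 14.4) and 15 without (8.4 to 24.7). Of these 5 and 12 were inside the gene, and 2 and 3 lay beyond its lower-coordinate end, with none within 100 kb of the other end. Only 94 protein-coding genes (0.435%) had at least 5 melatonin peaks in the body and 20 (0.0925%) at least 12 untreated ones, Angpt1 included. The gene is 252 kb long, and per length its body held 19.8 melatonin and 47.6 untreated peaks per Mb. The protein-coding genes most like it in 4 counts (body and flank peaks in each list) were Lrba, Wwox and Cpq, at Euclidean distances of 1.41, 1.73 and 2.45 from it, over these 2 libraries. They had 5, 6 and 5 melatonin and 12, 12 and 14 untreated peaks in the body. Their bodies were longer, at 559, 913 and 511 kb, so that they held 21.5, 13.1 and 27.4 untreated peaks per Mb.

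Inside Angpt1, the part nearest the lower-coordinate end held untreated peaks alone. With the gene cut into 3 equal parts of 84.1 kb from the lower-coordinate end, the parts held 0, 3 and 2 melatonin peaks and 4, 5 and 3 untreated peaks. With 5 melatonin peaks in the gene, 0 in the first part allows a share of up to 52.2% there (exact 95% binomial interval), so the difference between the libraries in the spread of peaks is within counting error. Of the 4 untreated peaks of the first part, 3 lay within 9.12 kb of sequence (42467298 to 42476423, folds 7.48, 5.86 and 4.23), at least 54.3 kb from any melatonin peak. There were 2 sites called in both libraries. Inside the gene, 42549519 to 42550519 with melatonin (fold 7.83) and 42549521 to 42550841 without (fold 4.3) shared 998 bp. Outside it, 42384486 to 42385486 with melatonin (fold 4.47) and 42384919 to 42386226 without (fold 4.81) shared 567 bp. These 2 were the only overlaps among all 24 melatonin peaks around the 9 genes.

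ChIP tags at Angpt1 lay between 14.8 and 23.5 per region, so high folds there went with low input by arithmetic. The melatonin peak at 42530687 to 42531687 had a fold of 38.26, with 19.1 ChIP and 0.5 input tags, and 0.5 is the lowest input value in that list. Its nearest untreated peak, at 42534379 to 42535379 and 2.69 kb away, had a fold of 4.27, with 20 ChIP and 4.7 input tags. The ChIP level was nearly equal, at 15.5 and 15.2 normalised tags in 1000 bp each. The difference in fold between these neighbours thus rested on the input tags. In the untreated list the highest fold at Angpt1 was 16.23, at 42579322 to 42580322, with 1.2 input tags, and a melatonin peak with a fold of 8.7 and 2 input tags lay 9.7 kb from it.

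Cxcl12 (chromosome 6, 117168535 to 117181368) had no peak in a window of 213 kb in either library, which allows up to 3.69 peaks by the Poisson interval. At the mean densities of chromosome 6 the window would hold 0.637 melatonin and 0.563 untreated peaks, so an empty window does not set this gene apart. The nearest peaks were 119 kb from the gene with melatonin and 168 kb without.

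Grem1 (chromosome 2, 113748675 to 113758648, minus strand) encodes gremlin 1, a secreted antagonist of bone morphogenetic proteins that marks skeletal progenitors. It had 1 melatonin peak (0.0253 to 5.57) and 2 untreated peaks (0.242 to 7.22), all upstream of the gene. The untreated peak nearest the start, at 113761567 to 113763173, lay 2.92 kb from the gene within the long noncoding RNA gene Gm46756 and had a fold of 4.65 and 22.0 normalised tags over 1606 bp. The other untreated peak lay between genes (113771082 to 113772082, fold 4.04). The melatonin peak, at 113804579 to 113805579 (fold 4.24), fell in the body of Scg5, which encodes a secretory granule protein, 32.5 kb from the nearest untreated peak. With densities of 1.17 and 2.12 times those of chromosome 2, Grem1 was the gene with peaks closest to its chromosome's melatonin mean.

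Vcam1 (chromosome 3, 116110020 to 116129688) encodes the adhesion molecule that stromal and endothelial cells present to integrin alpha 4 on blood cells. The body was free of peaks, but the flanks held 5 melatonin (1.62 to 11.7) and 8 untreated peaks (3.45 to 15.8), or 5.78 and 7.46 times the means of chromosome 3. The widest was an untreated region of 1888 bp at 116186209 to 116188097 with 26.1 normalised tags and a fold of 5.53. A melatonin peak lay on each side of it, 3.77 kb away at 116191864 to 116193185 (fold 5.33) and 9.38 kb away at 116175825 to 116176825 (fold 4.93). The closest pair without overlap in any of the windows was also here, 0.681 kb apart, with melatonin at 116095369 to 116096830 (fold 4.35) and untreated at 116093420 to 116094688 (fold 4.59), both touching the noncoding gene Gm31384. Untreated peaks alone were called at the higher-coordinate side nearest the gene, at 116134958 to 116135958 (5.27 kb away, fold 4.54) and 116140256 to 116141511 (fold 6.84), both in the noncoding gene 5330425B07Rik. The nearest melatonin peak to the gene was 13.2 kb away and the nearest to these 2 peaks was 34.3 kb away.

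Of the receptors, Lepr (chromosome 4, 101717137 to 101815352), the leptin receptor gene, had a single untreated peak, in the gene at 101727061 to 101728061. It had a fold of 7.26, 12.9 normalised tags and 2.3 input tags. No melatonin peak was within 100 kb, and the nearest was 437 kb from this peak. Chromosome 4 was poor in peaks: 15.8% of its protein-coding genes had a melatonin peak within 100 kb and 12% an untreated one. One peak against none is within counting error, as the Poisson intervals were 0.0253 to 5.57 and 0 to 3.69. Pdgfra (chromosome 5, 75151322 to 75198206), the platelet-derived growth factor receptor alpha gene used to sort stromal progenitors, had no peak in a window of 247 kb. The nearest peaks were 293 kb from it with melatonin and 186 kb without, and the chromosome's means give 0.545 and 0.674 peaks for such a window.

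Nt5e (chromosome 9, 88327609 to 88372089, plus strand) encodes CD73, the surface enzyme that turns AMP into adenosine and serves as an MSC marker. Within 100 kb the lists held 4 peaks each (1.09 to 10.2), or 6.47 and 6.36 times the means of chromosome 9. In 7 of 9 other settings of window or threshold it had 1 or 2 more melatonin than untreated peaks. In the gene lay 2 melatonin peaks (88334008 to 88335008, fold 4.02, and 88349820 to 88351103, fold 5.0) and 1 untreated peak (88338088 to 88339088, fold 7.95), the first and the last 3.08 kb apart. All other peaks were upstream of the start and none downstream. There the melatonin peak at 88291320 to 88292320 had a fold of 17.83 on 1 input tag and lay 5.41 kb from an untreated peak with a fold of 4.23 on 3.9 input tags. Their ChIP levels were 14.5 and 12.5 normalised tags in 1000 bp each.

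Prrx1 (chromosome 1, 163245119 to 163315145, minus strand), a homeobox transcription factor gene of limb and skeletal mesenchyme, had 2 melatonin peaks (0.242 to 7.22) and 7 untreated peaks (2.81 to 14.4) and none in the body. Of the untreated peaks, 4 formed a group of 7 kb far downstream (163144821 to 163151818, folds 4.34, 4.36, 11.86 and 4.23), 93.3 to 99.3 kb from the gene. A further untreated peak next to that group lay 104 kb from Prrx1 (fold 4.98) and so outside the 100 kb limit. The count of 7 thus depends on where the window ends. Within 50 kb of the gene there were 3 untreated peaks and no melatonin peak. The melatonin peaks were upstream, 58.1 and 92.3 kb from the gene (folds 4.89 and 4.47), and the nearest untreated peak to them was 26.7 kb away. No peak of either list at Prrx1 had a counterpart in the other within 10 kb.

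Most peaks around these genes were not in the genes, and this was also so in the whole lists. There, the midpoints of 29.1% of melatonin and 27.8% of untreated peaks lay in any protein-coding body. Of the melatonin peaks 7 were in a body and 17 in a flank, and of the untreated peaks 15 and 31. Over the 639 kb of bodies this came to 11 and 23.5 peaks per Mb, and over the 1800 kb of flanks to 9.44 and 17.2. Angpt1, with 252 kb of these bodies, held 5 of the 7 melatonin and 12 of the 15 untreated body peaks. The higher density of bodies therefore rested on that gene and does not describe the other members. Flank peaks within 10 kb were called in the untreated list alone, with 5 within 10 kb, 11 from 10 to 50 kb and 15 beyond, against 0, 8 and 9 with melatonin. The untreated list had more flank peaks (31 against 17), and flank distances were not counted over all genes. Gene bodies with a peak numbered 2 with melatonin (5.54% of all genes) and 4 without (5.26%).

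Median levels and folds of the peaks around these genes were close to those of their lists. The shares of wide peaks and of high folds were larger, but they rest on few peaks and were not set against counting error. The median level was 13.9 normalised tags with melatonin (all peaks 13.4) and 13.8 without (all peaks 13.6). Median fold was 5.35 against 5.11 with melatonin, and 5.11 against 4.87 without. Input tags had medians of 3 and 3.5, against 3.5 and 3.9 in the whole lists. Per kb, median input was 3 and 3.19 around these genes and 3 and 3.5 over all peaks. Tags spread evenly over the genome size in the headers would give 6.17 and 6.6. Median input was thus below the even level in both lists, and folds throughout rest on this as well as on ChIP tags. Median ChIP levels, 13 and 13.3 normalised tags per kb, were above their even level of 5. The smallest possible width of 1000 bp was found in 16 of 24 melatonin and 33 of 46 untreated peaks (66.7% and 71.7%, against 79.2% and 79.6% of the lists). Folds of at least 10 were listed for 4 melatonin and 6 untreated peaks (16.7% and 13%, against 7.69% and 4.03% of the lists), and these 10 peaks had between 0.5 and 2.3 input tags. At the ChIP levels seen here a fold of 10 requires few input tags.

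**Figure D3:**
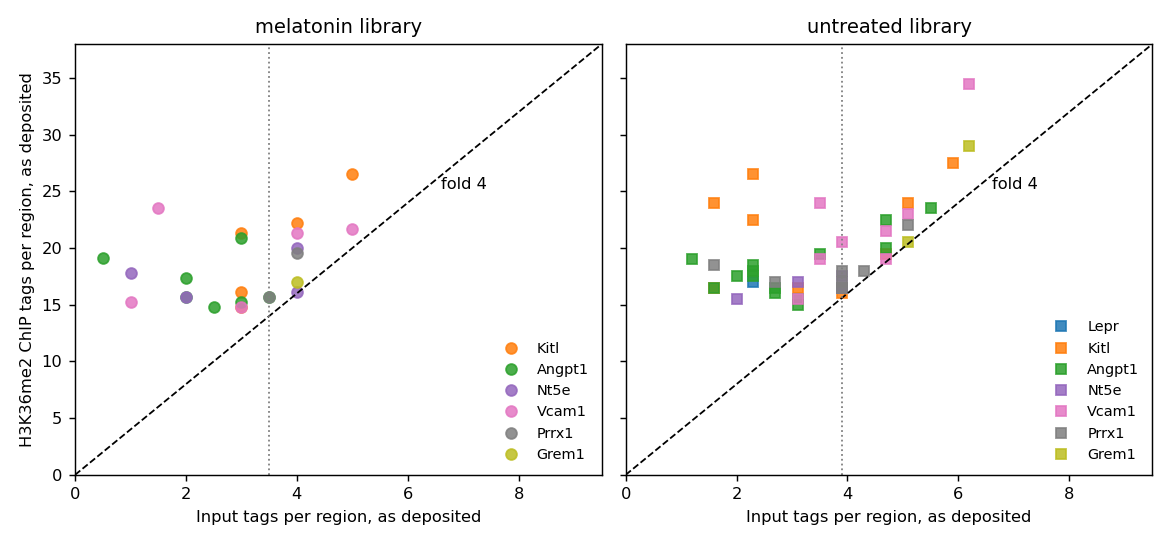
ChIP tags against input tags for each peak of the 9 gene windows, as deposited (melatonin ChIP tags scaled down to the input, untreated input tags scaled down to the ChIP), coloured by gene. The dashed line is the required fold of 4 and the dotted line the median input of all peaks in the list (3.5 and 3.9). ChIP tags lie between 14.8 and 34.5, and the points with the highest folds have few input tags, as the ratio requires.

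Peaks of the libraries lay near each other more often than they overlapped. The median distance from a melatonin peak of these windows to the nearest untreated peak was 8.42 kb, against 24.5 kb for all melatonin peaks. In the other direction it was 18.6 kb, against 25.6 kb for all untreated peaks. Of 24 melatonin peaks, 14 (58.3%, exact interval 36.6 to 77.9) had an untreated peak within 10 kb, as did 30.8% of all melatonin peaks, and 19 of 46 untreated peaks (41.3%, 27 to 56.8) had a melatonin peak that near, as did 29.2% of the list. Such a share depends on how dense the other list is in a window, and these windows were dense. Overlap itself was found for 2 of 24 (8.33%) and 2 of 46 (4.35%), against 6.12% and 5.6% of the lists. At Kitl, Angpt1, Vcam1 and Nt5e some peaks had a close counterpart, and at Prrx1, Grem1 and Lepr none did.

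**Figure D4:**
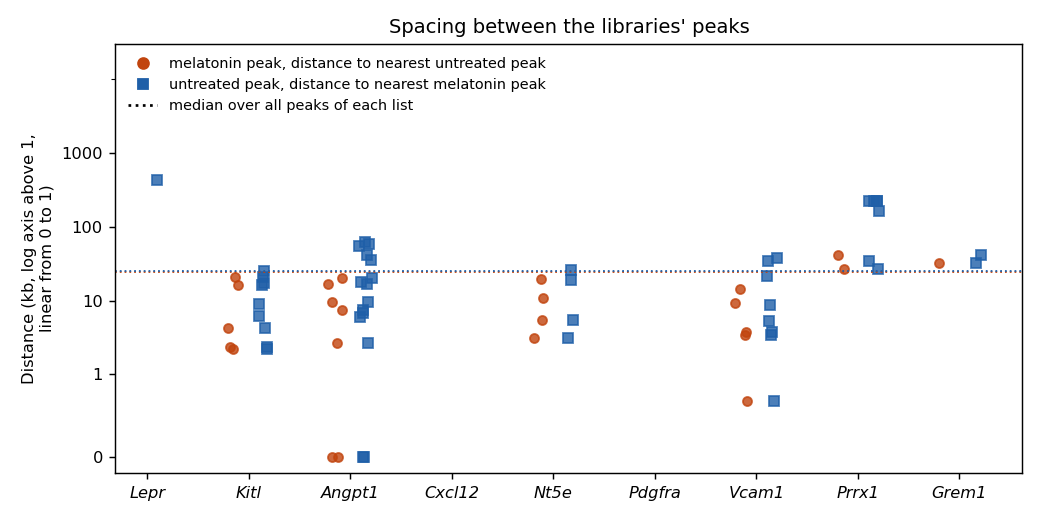
Edge-to-edge distance in kb from each peak to the nearest peak of the other library, per gene (log axis above 1 kb, linear below), with dotted lines at the medians of all peaks in each list (24.5 and 25.6 kb). The 2 points at 0 for each library are the overlapping sites at Angpt1, and the untreated peaks of Prrx1 and Lepr include those farthest from a melatonin peak.

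Tag levels per kb were compared in the 14 pairs within 10 kb, which held 13 distinct untreated peaks. The ratio of melatonin to untreated tags per kb ran from 0.811 to 1.16 with a median of 0.963, the melatonin peak was the higher in 4 pairs, and the 95% Poisson intervals overlapped in all 14. Any 2 peaks of these windows would overlap in this way, as no lower limit was above 11 and no upper limit below 16.6. The overlap therefore does not show that levels were equal. Only regions that passed the peak finder's thresholds enter these ratios. Neighbours within the same list were found for 15 of 46 untreated peaks, which had another untreated peak within 5 kb (32.6%, against 17.6% of the list). None of the 24 melatonin peaks had one (15.1% of the list), where the exact 95% binomial interval for 0 of 24 reaches 14.2%, treating peaks as independent.

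A further 4 gene lists, chosen with earlier results of these data known, were counted the same way against the 29.9% and 26.7% of all genes with a peak within 100 kb. Over all protein-coding genes 15.7% had more untreated and 18.8% more melatonin peaks in that window. Of 16 other niche factor genes 11 had a melatonin and 9 an untreated peak within 100 kb, and 4 had more untreated and 7 more melatonin peaks (median 1 peak in each list). In the gene or within 2 kb, where 6% and 5.78% of all protein-coding genes had a peak, Fgf2, a growth factor gene (fold 5.36), and Vegfc, a lymphatic vessel growth factor gene (fold 13.91), had one with melatonin alone. In their 100 kb windows Fgf2 had 1 peak in each library, and Vegfc had 2 melatonin and 6 untreated peaks. The niche factor list held 31 melatonin and 28 untreated peaks, summed over its 100 kb windows. By genes and by this sum, the direction seen at the 9 genes was not found in it. Il7, the lymphocyte growth factor gene, had 0 melatonin and 4 untreated peaks in its window, while Csf1, the macrophage growth factor gene, had 5 and 2.

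Of 18 other stromal marker genes 13 had a melatonin and 7 an untreated peak within 100 kb, and 4 had more untreated and 9 more melatonin peaks (medians 1 and 0). Acta2, the smooth muscle actin gene, was the one gene of this list with a peak in the body or within 2 kb, with melatonin alone (fold 4.47). Its 100 kb window held 2 melatonin and 4 untreated peaks. By genes, and by the sum over its 100 kb windows (23 melatonin and 18 untreated peaks), this list leaned the other way from the 9 genes. All protein-coding genes, counted by gene, leaned that way as well. Among 18 receptor and partner genes 12 had a melatonin and 8 an untreated peak within 100 kb. More untreated peaks were found at 5 and more melatonin peaks at 6 (medians 1 and 0). Summed over its windows, however, this list held 27 melatonin and 35 untreated peaks. Pdgfd and Pdgfc, which encode ligands of platelet-derived growth factor receptors, had body or 2 kb peaks in both lists (4 and 4, and 1 and 3), and Pdgfb had 1 with melatonin alone (fold 7.61). Itga4, which encodes the integrin chain that binds VCAM1, had 2 melatonin and 9 untreated peaks in its window, and Tek, the angiopoietin receptor gene, 0 and 1.

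Of 12 genes that mark other marrow cell types, 5 had a peak in the body or within 2 kb with melatonin and 2 without. Within 100 kb 5 and 5 had one (medians 0 and 0, with 14 and 13 peaks summed over the windows). In the body or within 2 kb, Emcn, an endothelial sialomucin gene, had 3 and 2 peaks, Pecam1 2 and 0, Vwf 1 and 0, and Flt1, a vascular growth factor receptor gene, 0 and 1. The leukocyte gene Ptprc and the macrophage receptor gene Csf1r had 1 each with melatonin alone. Within 100 kb Ptprc had 3 melatonin and 5 untreated peaks, and Csf1r 2 and 0. Genes of cells other than stroma thus carried peaks as well, and their part in the peaks of the 9 genes was not tested.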

How the data were processed

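H3K36me2 ChIP peaks were compared between 1 melatonin and 1 untreated library. Per the file headers, the authors ran HOMER findPeaks in histone style separately per ChIP library, with the input of the same condition as control, windows of 1000 bp, a fold over input of 4, a Poisson p over input of 1e-04 and no local filter. The headers also give a tag threshold of 18 with melatonin and 17 without, which equals the lowest findPeaks score of each list, while the tags listed per region can be lower (from 17 and 15 around the 9 genes). Per the submitters' processing notes, MACS2 2.1.0, BWA 0.7.13, Picard 1.126 and the build mm39 were used, and the HOMER version is not given in the sources used here.

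Deposited values were a signal of ChIP tags per 10000000, ChIP and input tags per region as a signal (the deeper library scaled to the shallower), a findPeaks score (used for that check alone), the authors' ratio of ChIP to input tags (fold) and a p-value over input. They serve to describe or filter peaks within a list. The region size in bp was deposited too.

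Coordinates were read as GRCm38, not mm39: the last untreated peak on chromosome 3 ends at 159805034, past that chromosome's end in mm39. In the RefSeq gene table of GRCm38.p6, protein-coding bodies held the midpoints of 29.1% and 27.8% of peaks, against 38 to 42.5% and 35.5 to 40.3% when shifted by 50 to 1000 kb. Strand came from the RefSeq promoter table. Exons, introns and UTRs were not separated, and sequence under the peaks was not used here.

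Overlap meant 1 bp, and distances were edge to edge, computed in Python 3.11.15 with pandas 2.3.3 and scipy 1.17.1. Chromosome means divide by the last listed gene or peak end. Intervals are 95% (exact Poisson or binomial) and cover counting error only. Counting was tested on simulated data, with planted peaks recovered in 200 of 200 windows. The members and lists were chosen with earlier results of these data known. Named are the 9 genes, list genes with a peak in the body or within 2 kb (up to 6 a list, by fold) and the 3 genes most like Angpt1. Csf1, Il7, Itga4, Tek and the noncoding genes under peaks were added after their values were seen. Alternatives were other windows, a fold of 6, a p of 1e-05, an equal number of peaks per list, midpoints, and other limits for a counterpart. Leaving out Angpt1, and applying the alternatives to the melatonin share and to each gene's difference, were chosen after seeing the data.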

Additional observations from a re-analysis of the deposited data

How the results depend on the processing

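The melatonin share of the peaks around the 9 genes was 34.3% and stayed between 25.9% (10 kb windows) and 40.6% (200 kb windows) over 10 alternatives, inside its counting interval of 23.3 to 46.6%. Numbers of peaks depended on the window: 24 melatonin and 46 untreated peaks became 7 and 15 for gene bodies alone and also with 2 kb on both sides, 7 and 20 with 10 kb, 15 melatonin peaks with 50 kb and 39 with 200 kb. They were 9 and 16 at a fold of at least 6, and 15 and 27 when each list kept its 3849 lowest p-values. Genes with a peak went from 6 to 2 with melatonin for bodies alone, 2 kb and 10 kb, and from 7 to 4 without melatonin for bodies alone and 2 kb. Melatonin peaks with a counterpart numbered 14 within 10 kb, 2 by overlap and 24 within 50 kb, and untreated peaks 19 within 10 kb, 2 by overlap, 10 within 5 kb and 37 within 50 kb. These shifts follow from counting a smaller or larger span or fewer peaks. Genes with more untreated and with more melatonin peaks numbered 6 and 0 within 100 kb, at a p of at most 1e-05 and by midpoints, 3 and 1 for bodies alone and 2 kb, 5 and 1 with 10 kb, 6 and 1 with 50 kb and with equal numbers of peaks, 6 and 2 with 200 kb, and 4 and 2 at a fold of at least 6. At Nt5e the difference of 0 (untreated minus melatonin) was -2 with 50 kb and with equal numbers of peaks and -1 in 5 other settings. At Vcam1 the difference of 3 (untreated minus melatonin) turned to -1 at a fold of at least 6, and the cause was not tested. At a p of at most 1e-05, or by midpoints, the 24 and 46 peaks were unchanged in number. At a fold of at least 6 the whole lists themselves held 53.5% melatonin peaks. No paired analysis was possible because each condition had 1 library. Depth limits what can be called: a peak rests on 14.8 to 34.5 ChIP tags and at most 6.2 input tags, so a fold can change with 1 or 2 input tags.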
